A study of Mus musculus with 16 samples.

Results

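The step from 1 h to 4 h of TGFβ was examined in mouse embryo fibroblasts, by pairing the 4 h library with the 1 h library of the same line in 4 series, which makes 8 of the 16 libraries of the study. Poly(A)-selected RNA was sequenced with a strand-specific kit, and 11018 of the 12100 genes in the deposited table had a mean of at least 1 FPKM (fragments relative to transcript length and library size) and were tested. The pairs asked which genes that respond within the first hour had come down by 4 h, and which genes moved only afterwards. The 4 series were Ark+/+ fibroblasts (WT), Ark-/- fibroblasts (null), and Ark-/- fibroblasts reconstituted with wild-type Arkadia (rvWT, vector rvCAG-ArkWT) or with the sim mutant (vector rvCAG-Arksim). Arkadia is the ubiquitin ligase encoded by Rnf111, and the sim mutant is altered in its SUMO-interacting motif. All of the cells compared had received TGFβ at 2.5 ng/ml, for 1 h or for 4 h, and the 0 h libraries came from untreated cells. No untreated culture kept for 4 h was used here, so the agent and the hours in culture cannot be told apart. In these bulk samples fewer cells of a type and less RNA per cell cannot be told apart.

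WT and null of set A were labelled apart from rvWT and sim of set B, and the design text names 2 sequencing batches. In the pairs of 4 h with 1 h, retroviral reconstitution and set therefore cannot be told apart. Null of set B has libraries at 0 h and 1 h but none at 4 h, and no library of an empty retrovirus was used here. Each library stood alone for its line and time in these 4 series, and nothing in the labels says that libraries came from separate cultures, although the design text calls them independent, so p-values measure the spread between libraries, which may be technical. Rnf111 stood at 15.1 and 14.99 FPKM in WT at 1 h and 4 h and at 0.198 and 0.177 in null, and at 103 and 126 FPKM in rvWT and 56.0 and 61.1 in sim, as labelled. Of 12 fibroblast markers 10 were in the table, with a summed level of 2042 to 7367 FPKM at 1 h and 2099.8 to 8035 FPKM at 4 h. Epithelial markers (5 of 11 in the table) summed to 22.3 to 529 FPKM at 1 h and 35.5 to 341 FPKM at 4 h. The ranges at 1 h and 4 h were 15.9 to 102 and 34.6 to 100.3 FPKM for cartilage and bone markers (2 of 8), 26.6 to 109.5 and 16.1 to 99.3 FPKM for the adipocyte gene Lpl (1 of 6), and 25.8 to 54.6 and 34.7 to 68.1 FPKM for neural markers (4 of 7). They were 18.03 to 19.8 and 20.6 to 28.7 FPKM for striated muscle (4 of 8), 6.36 to 15.3 and 6.68 to 14.9 FPKM for haematopoietic (3 of 9), and 6.87 to 10.03 and 7.03 to 13.5 FPKM for endothelial markers (3 of 9). Their part in the results was not tested.

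TGFβ binds paired receptor kinases that phosphorylate SMAD2 and SMAD3, which enter the nucleus with SMAD4 and switch on a first set of genes without new protein synthesis. Among these first targets are transcription factors and inhibitors of the pathway itself, so the response is known to be shaped over the following hours. In fibroblasts the pathway is known for raising matrix and contractile genes, and TGFβ can also reach the SMAD1 and SMAD5 branch that BMPs use, for which the Id genes are the usual readout.

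Differences were estimated on log2(FPKM + 1) as the mean of the 4 within-series differences, which understates the change of genes at low levels. They are given as log2 values (means over n = 4 series) ± the SE of the limma fit, with its adjusted p, called below 0.05. This SE draws on all libraries of the fit and on other genes, not on the spread of the 4 differences alone. Between 1 h and 4 h, 862 genes rose (7.82% of those tested) and 1630 fell (14.8%), together 22.6%. At least a doubling was seen for 45 of those that rose, and at least a halving for 48 of those that fell. The median over all genes was -0.05, and the split of the calls followed the scaling: 34.6% of calls were rises as deposited, while median-ratio scaling of the libraries gave 1102 rises and 1237 falls, and quantile normalization 1151 and 1121. The calls rest on the pairing within series: without the series term, which leaves the differences between lines in the error, 9 genes rose and 15 fell. The counts depended on the libraries: 551 genes rose and 952 fell when null 1 h was left out, 433 and 719 when rvWT 1 h was, 442 and 693 when sim 1 h was, 462 and 752 when sim 4 h was, and 1029 fell when rvWT 4 h was. Set B alone gave 561 rises and 958 falls, and set A alone gave 2 and 2. Both fits had equally many libraries, fewer than the main fit, and the cause of this gap was not tested. Of the named calls, set A alone lost 147 of 149 and set B alone 31 of 150. Single series held 90 rises and 89 falls of at least 1 on the log2 scale in WT, 102 and 89 in null, 139 and 240 in rvWT, and 137 and 164 in sim, with no test.

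Genes of the BMP and SMAD branch were the 5 largest of the falls ranked (Atoh8, Id2, Id3, Smad6, Id1), and the largest rises included a protease (Mmp9), secreted signals (Inhba, Ccl2, Cxcl10), the cyclooxygenase Ptgs2 and the pathway inhibitor Ldlrad4. Among the 15 largest rises, WT moved little in Mmp9, Egr2 and Egr1, at 0.29, 0.16 and 0.21, and rvWT and sim by 1.95 to 3.16. Among the 15 largest falls, Nxt2 and Mocs1 rest on libraries near 0 FPKM: at 4 h Nxt2 was at 0.115 FPKM in WT, 0.000434 in rvWT and 0.105 in sim, Mocs1 was at 0.0706 FPKM in null and 0.0145 in sim, and every one of the 4 series was above 3 FPKM at 1 h for both. The calls of Mmp9, Egr2, Nxt2, Mocs1 and Wash were each lost in 5 or 7 of 12 leave-one-out fits, that of Rasl11b in 4, that of Kctd11 in 3, that of Rasl11a in 2 and that of Socs2 in 1.

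**Figure D1:**
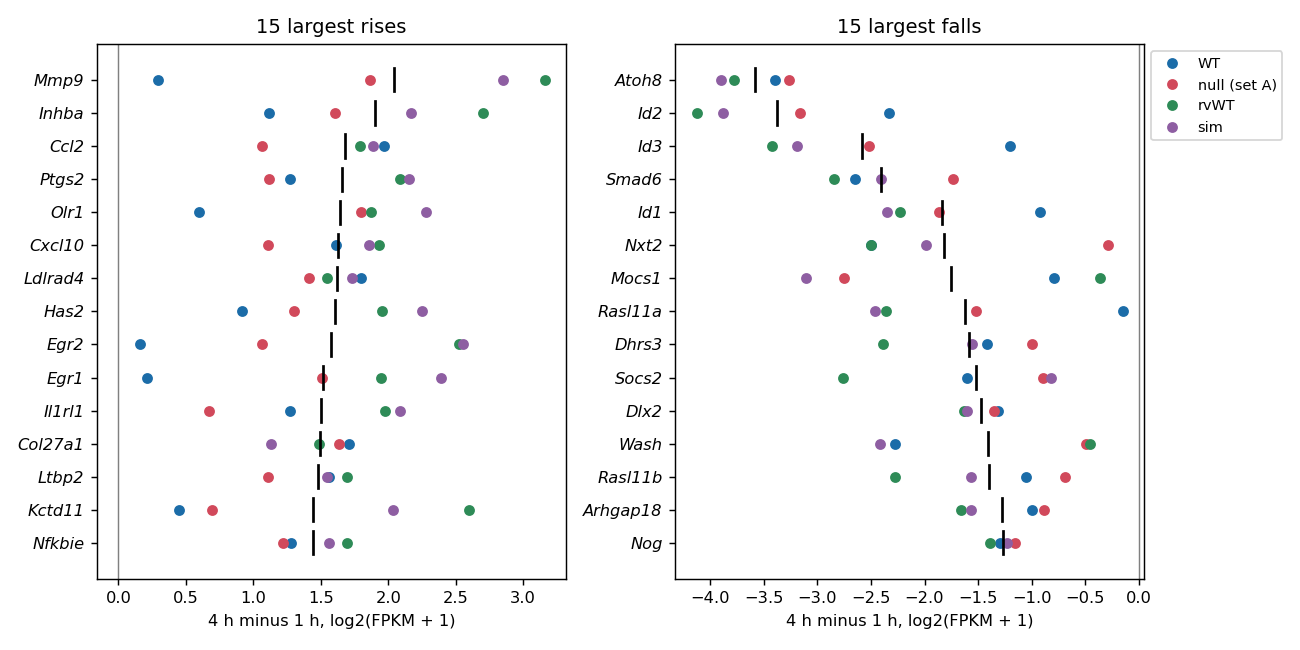
The difference between 4 h and 1 h of TGFβ in log2(FPKM + 1) for the 15 largest rises (left) and falls (right); each dot is 1 series (WT, null of set A, rvWT, sim) and each black bar the mean of the 4. Ldlrad4, Nfkbie, Dlx2 and Nog sit close together across the series, while Mmp9 ran from 0.29 in WT to 3.16 in rvWT.

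Promoters are shown for the 3 named genes that peaked at 1 h and the 3 that moved only after it with the largest differences among those whose sequence could be printed, as RefSeq gives them on GRCm38.p6 from 250 bases before to 50 bases after the start, 300 bases each, 5′ to 3′ on the gene's strand. The deposited values were made on mm9, and these coordinates are those of the RefSeq table alone. Of those that peaked, Atoh8 lies on the minus strand at chr6:72235528-72235827, Smad6 on the minus strand at chr9:64022010-64022309 and Dlx2 on the minus strand at chr2:71546705-71547004. Of the late genes, Ptgs2 lies on the plus strand at chr1:150099781-150100080, Cxcl10 on the minus strand at chr5:92348840-92349139 and Col27a1 on the plus strand at chr4:63215162-63215461. Capitals mark the SMAD palindrome GTCTAGAC in Smad6, the short SMAD element CAGAC in Dlx2 and Ptgs2, and the AP-1 site TGANTCA in Cxcl10. In Col27a1 they mark GTCTG, which is CAGAC read on the other strand, and none of the motifs searched occurred in Atoh8.
Atoh8: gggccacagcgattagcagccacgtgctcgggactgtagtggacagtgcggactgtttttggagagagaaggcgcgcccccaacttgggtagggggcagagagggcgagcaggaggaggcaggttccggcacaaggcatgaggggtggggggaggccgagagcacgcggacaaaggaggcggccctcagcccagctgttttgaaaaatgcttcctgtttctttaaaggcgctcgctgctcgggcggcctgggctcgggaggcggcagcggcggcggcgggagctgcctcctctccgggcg
Smad6: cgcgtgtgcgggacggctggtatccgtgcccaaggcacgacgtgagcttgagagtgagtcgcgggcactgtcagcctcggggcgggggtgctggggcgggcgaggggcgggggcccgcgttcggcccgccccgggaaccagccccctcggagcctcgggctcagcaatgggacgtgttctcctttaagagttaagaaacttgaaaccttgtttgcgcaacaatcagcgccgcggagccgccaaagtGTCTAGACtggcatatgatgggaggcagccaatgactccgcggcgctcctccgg
Dlx2: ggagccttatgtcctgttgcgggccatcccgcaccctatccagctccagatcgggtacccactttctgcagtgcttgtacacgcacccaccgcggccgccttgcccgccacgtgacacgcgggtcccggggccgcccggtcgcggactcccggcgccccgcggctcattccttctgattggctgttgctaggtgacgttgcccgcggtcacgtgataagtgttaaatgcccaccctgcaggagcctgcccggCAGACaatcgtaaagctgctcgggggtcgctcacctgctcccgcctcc
Ptgs2: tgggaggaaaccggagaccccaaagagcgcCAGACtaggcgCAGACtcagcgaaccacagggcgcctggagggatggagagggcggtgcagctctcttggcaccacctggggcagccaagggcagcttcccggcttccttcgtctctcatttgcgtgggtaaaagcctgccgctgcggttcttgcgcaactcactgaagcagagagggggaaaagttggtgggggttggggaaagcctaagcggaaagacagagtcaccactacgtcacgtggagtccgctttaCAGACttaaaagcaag
Cxcl10: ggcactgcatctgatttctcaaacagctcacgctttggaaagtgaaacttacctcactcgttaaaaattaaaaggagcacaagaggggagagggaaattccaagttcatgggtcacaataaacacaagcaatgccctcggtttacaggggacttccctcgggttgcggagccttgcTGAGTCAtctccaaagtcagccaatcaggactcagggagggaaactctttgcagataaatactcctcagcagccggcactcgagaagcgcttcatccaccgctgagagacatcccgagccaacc
Col27a1: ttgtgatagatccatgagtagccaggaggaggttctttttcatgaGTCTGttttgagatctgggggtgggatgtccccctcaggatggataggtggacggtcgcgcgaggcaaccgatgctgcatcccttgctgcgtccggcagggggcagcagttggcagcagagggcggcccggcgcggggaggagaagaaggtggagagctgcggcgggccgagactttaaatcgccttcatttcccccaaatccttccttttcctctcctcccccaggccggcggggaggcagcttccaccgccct

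Motifs were read on both strands, and a match describes the letters in the window alone. The tables matched 10989 of the 11018 genes, and the 6999 with a single promoter were searched. The short SMAD element CAGAC occurred in 47.0% of these promoters, in 39.4% of those of genes that peaked at 1 h, in 53% of those that rose only after 1 h and in 67.7% of those that rose in both intervals (21 of 31). It was in 43.8% of those that fell only after 1 h and in 39.3% of those lowered and then raised (11 of 28). The AP-1 site occurred in 4.26% of all, 3.03% of the peaking genes (2 of 66) and 6.48% of the later risers (23 of 355). The CArG box, the site bound by serum response factor, occurred in 1.34%, 1.52% (1 of 66) and 3.38% (12 of 355). TATAAA was in 6.77%, 7.58% and 5.92%, and the cyclic AMP response element TGACGTCA in 3.56%, 1.52% (1 of 66) and 1.41% (5 of 355). Shares among the peaking genes thus rest on few promoters. GTCTAGAC, a motif added after the Smad6 sequence had been seen, occurred in 13 of the 6999 promoters (0.186%) and holds no CAGAC within it.

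Genes that peaked at 1 h were those higher at 1 h than at 0 h and lower at 4 h than at 1 h, both past the test. In the first hour 341 genes rose (3.09%) and 111 fell (1.01%). Genes that peaked numbered 111, with a median rise of 0.70 in the first hour and a median fall of 0.58 after it. Because the 2 contrasts share the 1 h libraries, a peak at 1 h can also arise from scatter in those libraries, and the null 0 h and 1 h libraries of set B, which entered no other contrast, were set beside them. In that pair 110 of the 111 genes were higher at 1 h (99.1%), by a median of 0.70, against 38.0% of all genes tested. At 4 h 37 of the 111 were still above 0 h, 9 were below it and 65 did not pass, beside 11.7% of all genes above and 26.5% below. The count of 111 was 59 without rvWT 1 h, 57 without sim 1 h and 71 without sim 0 h.

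The inhibitory SMADs were among the clearest of these peaks. Smad6, which blocks the BMP branch, stood at 40.0, 26.0, 38.6 and 38.8 FPKM at 1 h in WT, null, rvWT and sim, and at 5.55, 7.11, 4.53 and 6.5 FPKM at 4 h. All 4 series fell and the 1 h and 4 h values did not overlap. The mean difference was -2.41 ± 0.16 (limma adjusted p = 0.000267), and at 4 h Smad6 was not distinguished from 0 h (-0.39, adjusted p = 0.083). Smad7, which blocks TGFβ receptors and is a substrate of Arkadia, went from 40.1, 24.4, 22.8 and 20.8 FPKM to 19.9, 12.5, 12 and 10.8 FPKM. It fell in every series by 0.87 to 0.98, a mean of -0.91 ± 0.06 (adjusted p = 0.000317), with no overlap between the times. Unlike Smad6 it remained above its 0 h levels of 4.05 to 8.21 FPKM in each series.

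The Id genes encode proteins that hold back basic helix-loop-helix factors, and Atoh8 encodes such a factor. Atoh8 went from 48.7, 24.4, 32.2 and 36.4 FPKM at 1 h to 3.71, 1.65, 1.42 and 1.51 FPKM at 4 h in WT, null, rvWT and sim, a difference of -3.59 ± 0.22 (limma adjusted p = 0.000267). The times were far apart, and every 4 h level was also below its own 0 h level, which had been 5.57 to 26.0 FPKM (4 h against 0 h, -1.81, adjusted p = 0.000839). Id2 stood at 41.3, 101, 84.0 and 101 FPKM at 1 h and 7.40, 10.4, 3.86 and 5.93 FPKM at 4 h. Its fall was -3.38 ± 0.32 (adjusted p = 0.000745), and it too ended below 0 h (-2.31, adjusted p = 0.00139). Id3 went from 173, 440.5, 690.1 and 763 FPKM to 74.6, 76.2, 63.4 and 82.7 FPKM, a fall of -2.58 ± 0.32 (adjusted p = 0.00192). The 4 h values of Id3 lay within a narrow range although the 1 h values had differed by several fold, and the smallest falls of Id1, Id2 and Id3 were in WT, where the first hour had brought little change: Id1, Id2 and Id3 were at 131, 52.8 and 169 FPKM in WT at 0 h and at 124, 41.3 and 173 FPKM at 1 h. The first-hour rises of Id1, Id2 and Id3 over the 4 series did not pass (1.30, 1.06 and 1.22, adjusted p = 0.0539, 0.127 and 0.0849), so they are not among the 111. Id1 fell by a mean of -1.84 ± 0.30 (adjusted p = 0.00526) and Id4, which was low, by -1.98 ± 0.13 (adjusted p = 0.000267).

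Of 13 tested genes in the BMP and Id list, 9 fell (69.2%) and 0 rose, against 14.8% and 7.82% of all genes. The list median was -1.27 against -0.05 over all genes. The other members that fell were Nog, a secreted BMP antagonist, at -1.27 ± 0.14, Smad9, a BMP-branch SMAD, at -1.47 ± 0.20, Bmp4, a ligand, at -0.74 ± 0.17, and Hey1, a transcriptional repressor, at -0.85 ± 0.23 (limma adjusted p = 0.00137, 0.00252, 0.018 and 0.033). Grem1 and Fst, which encode secreted inhibitors of BMPs and activins, were at 0.12 and -0.00 and did not pass. Leaving out single libraries kept 7 to 9 falls in this list. This and the other gene lists were chosen with earlier results of these data known, which can in part fix such shares.

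**Figure D2:**
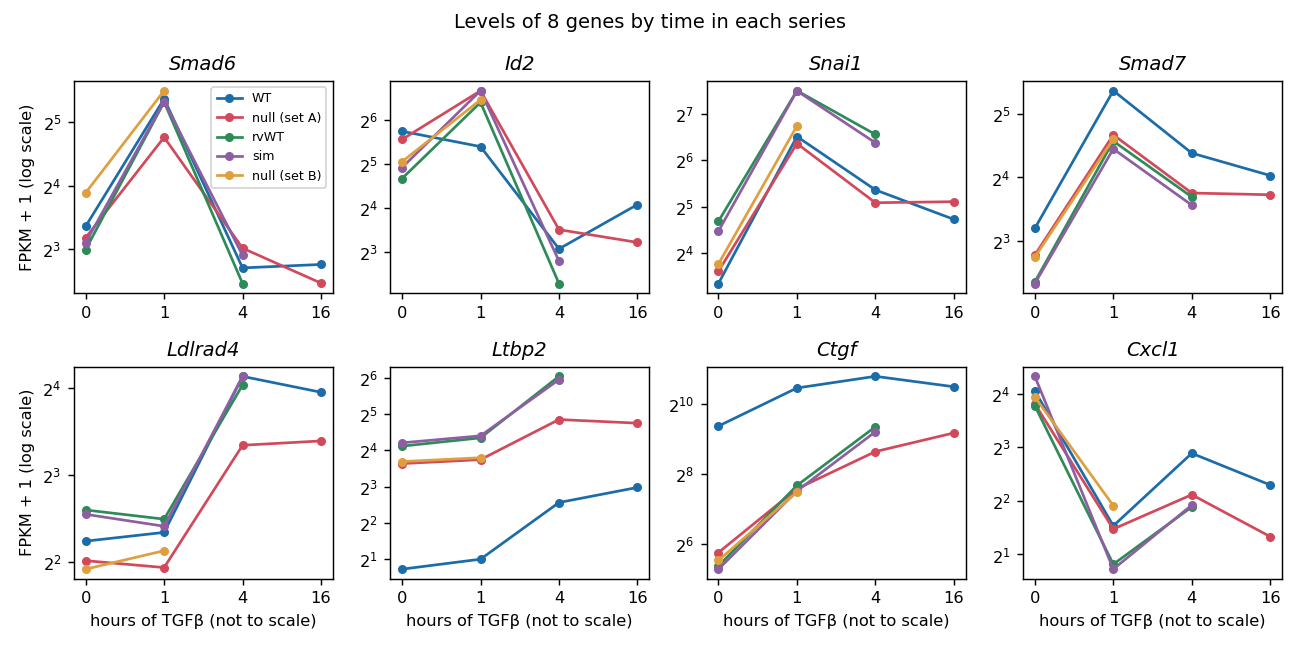
Levels in FPKM + 1 on a log scale at 0, 1, 4 and 16 h of TGFβ (times evenly spaced, not to scale) in each series, 1 library per point; null of set B has 0 and 1 h only, and 16 h exists for WT and null of set A. Smad6, Id2, Snai1 and Smad7 peaked or were high at 1 h and were lower at 4 h, Ldlrad4 and Ltbp2 rose only after 1 h, Ctgf rose in both intervals, and Cxcl1 fell in the first hour and was partly back at 4 h.

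Transcription factors of the first hour came down by differing amounts. Snai1, a repressor of epithelial genes, went from 90.5, 81.4, 181 and 179.9 FPKM at 1 h to 40.2, 33.0, 93.4 and 82.3 FPKM at 4 h. Every series fell by about the same amount, 0.94 to 1.28, although rvWT at 4 h was above WT at 1 h. The mean fall was -1.12 ± 0.09 (limma adjusted p = 0.000355), and the 4 h levels stayed above the 9.17 to 24.8 FPKM of 0 h. Klf10, a zinc finger factor first found as TGFβ-inducible, was at 44.1, 56.6, 49.9 and 46.4 FPKM at 1 h and at 20.9, 25.4, 24.0 and 22.7 FPKM at 4 h. The times did not overlap and the difference was -1.05 ± 0.12 (adjusted p = 0.00153). The homeobox gene Dlx2 fell by -1.48 ± 0.08 (adjusted p = 0.000206), from 29.2, 12.2, 11.1 and 10.2 FPKM to 11.2, 4.16, 2.90 and 2.69 FPKM, WT being the highest series at both times. Other genes raised in the first hour that fell were Gata2 (-1.24 ± 0.10), Klf4 (-0.74 ± 0.12), Cebpb (-0.58 ± 0.13), the SMAD corepressor Ski (-0.37 ± 0.10), the corepressor Tgif2 (-0.35 ± 0.05) and Smad3 itself (-0.36 ± 0.05). Their limma adjusted p ran from 0.000488 for Gata2 to 0.0315 for Ski. The Wnt ligands Wnt9a and Wnt4 also peaked at 1 h, falling by -0.98 ± 0.18 and -0.72 ± 0.08 (adjusted p = 0.00881 and 0.00143).

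Other genes of the first hour were not distinguished from their 1 h level at 4 h. Bhlhe40, a helix-loop-helix repressor, was at 128, 71.5, 59.8 and 55.7 FPKM and then at 115, 50.5, 81.9 and 66.2 FPKM. It was lower at 4 h in WT and null and higher in rvWT and sim, with a mean of 0.01 ± 0.15 (limma adjusted p = 0.963). The corepressor Tgif1 and the scaffold gene Nedd9 were at 0.01 ± 0.12 and -0.01 ± 0.10, and Junb, an AP-1 subunit, at -0.44 ± 0.15 with lower values at 4 h in 4 of 4 series (adjusted p = 0.0704). Of the 20 tested SMAD feedback genes and early regulators, 5 rose (25%) and 7 fell (35%), against 7.82% and 14.8% of all genes. The list median was 0.01. Amigo2 was among the 7 without having risen in the first hour (-1.11 ± 0.27).

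The first-hour genes chosen in the null pair of set B alone gave the same comparison without shared libraries. There 85 genes, small RNAs left out, were at least 1 higher at 1 h on the log2 scale with at least 5 FPKM, and 40 of them (47.1%) fell between 1 h and 4 h in the 4 series, against 14.8% of all genes. Another 4 rose (4.71%), which were Ctgf, Pmepa1, Smurf1 and Olr1, and 41 were not called. The median over the 85 was -0.44 from 1 h to 4 h, and 0.69 from 0 h to 4 h. Of 17 genes at least 1 lower at 1 h in that pair, 3 rose after 1 h (17.6%) and 0 fell. The 3 were Spry2, Cebpd and Cxcl1, and they are named after their values were seen. Only 5 of the 17 were also called lower at 1 h in the 4 series, while 63 of the 85 were called higher there. Some of the 17 were near 0 at 1 h in the pair, such as Loxl4 at 47.3 FPKM at 0 h and 0 at 1 h. Among the 7277 genes within 0.25 of their 0 h level in the pair, 15.4% fell and 7.87% rose.

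**Figure D3:**
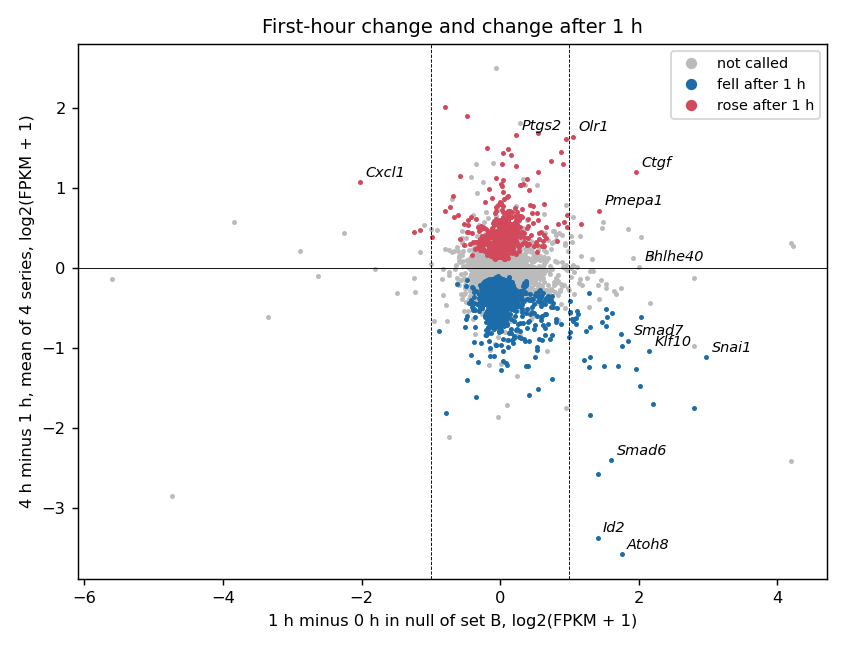
Each dot is a gene of at least 5 FPKM at 0 h or 1 h in null of set B (small RNAs left out): x axis, the 1 h minus 0 h difference in that pair, y axis, the mean 4 h minus 1 h difference of the 4 other series, both in log2(FPKM + 1); dashed lines mark 1 and -1. Of the 85 genes right of 1, 40 fell after 1 h and 4 rose; genes with a large y value and an x value near 0, such as Ptgs2, moved only after the first hour.

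Genes lowered in the first hour and rising again numbered 38, with medians of -0.42 and then 0.41. In the null pair of set B 1 of the 38 was higher at 1 h (2.63%, against 38.0% of all genes), and 28 of the 38 were not distinguished from 0 h at 4 h. Cxcl1, a neutrophil chemokine, had been at 12.7 to 19.1 FPKM at 0 h. It stood at 1.90, 1.78, 0.762 and 0.653 FPKM at 1 h and at 6.42, 3.34, 2.70 and 2.79 FPKM at 4 h. All 4 series rose without overlap between the times, by 1.07 ± 0.20 (limma adjusted p = 0.00996), and all were still below 0 h. Rnd3, a small GTPase of the cytoskeleton, went from 48.0, 28.8, 17.9 and 19.4 FPKM to 60.4, 51.1, 31.2 and 38.5 FPKM, a rise of 0.71 ± 0.12 (adjusted p = 0.00505) in 4 of 4 series whose ranges overlap. Cited2, a coactivator-binding protein, rose by 0.76 ± 0.15, the aryl hydrocarbon receptor gene Ahr by 0.63 ± 0.11 and Klf2 by 0.57 ± 0.08. Spry2, an inhibitor of receptor tyrosine kinase signalling, rose by 0.47 ± 0.12 (adjusted p = 0.0238), a call lost without any 1 of rvWT 1 h, rvWT 4 h, sim 1 h and sim 4 h. The count of 38 fell to between 18 and 24 in 8 of the 12 leave-one-out fits, those without WT 0 h (24), WT 1 h (19), null 0 h (21), null 1 h (18), rvWT 0 h (22), rvWT 1 h (19), sim 0 h (19) and sim 1 h (18).

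Genes that rose in both intervals numbered 50, and genes that fell in both numbered 8. The 50 rose by medians of 0.46 and 0.44, and 49 of them were higher at 1 h in the null pair of set B (98.0%, against 38.0% of all genes). Pmepa1, a membrane protein that inhibits SMAD2 and SMAD3 signalling, was at 74.5, 27.0, 53.7 and 49.5 FPKM at 1 h and 120.1, 41.4, 87.2 and 91.3 FPKM at 4 h. Each series rose, by 0.71 ± 0.07 on average (limma adjusted p = 0.000846). Ctgf, a matricellular protein, was at 1413, 189.9, 203 and 182 FPKM and then at 1782, 399, 654 and 592 FPKM. WT stood above the other series at both times and rose least, the mean was 1.20 ± 0.36 (adjusted p = 0.0456), and 9 of 12 leave-one-out fits lost the call (adjusted p up to 0.142). Olr1, a scavenger receptor gene, rose by 1.64 ± 0.22, the integrin gene Itgb3 by 0.74 ± 0.08, Cyr61 by 0.54 ± 0.12 and the cytokine Il6 by 0.75 ± 0.22. The call of Il6 was lost in 6 of 12 leave-one-out fits and that of Cyr61 in 2, those without rvWT 4 h and sim 4 h. The largest of the 8 genes with a fall in both intervals was Stom, a membrane scaffold gene, at -0.53 ± 0.06. The count of 50 fell to 21 without WT 1 h, 14 without null 1 h, 20 without rvWT 0 h, 16 without rvWT 1 h, 20 without sim 0 h, 13 without sim 1 h and 26 without sim 4 h. The count of 8 was 0 without rvWT 1 h, sim 1 h or sim 4 h, 1 without WT 1 h, null 1 h, rvWT 0 h or sim 0 h, 3 without WT 0 h, 4 without null 0 h and 21 without WT 4 h.

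Genes that started to move only after 1 h were the larger classes. They were called at 4 h against both 1 h and 0 h, the same way, and were neither called nor moved by 0.25 or more in the first hour: 546 rose late, by a median of 0.34, and 1313 fell late, by a median of -0.32. In the null pair of set B 58.4% of the former and 31.8% of the latter were higher at 1 h, with medians of 0.02 and -0.05. Over all genes tested the share in that pair was 38.0% and the median -0.04, so the late risers stood above that share already at 1 h. The 546 became 310, 306 and 293 without rvWT 1 h, sim 1 h and sim 4 h, and the 1313 became 750, 579, 813, 561 and 592 without null 1 h, rvWT 1 h, rvWT 4 h, sim 1 h and sim 4 h.

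The late risers included parts of the TGFβ pathway. Ldlrad4, a membrane inhibitor of SMAD2 and SMAD3 activation related to Pmepa1, was at 4.06, 2.82, 4.62 and 4.31 FPKM at 1 h and at 16.6, 9.15, 15.4 and 16.6 FPKM at 4 h. The times did not overlap, the 1 h levels were those of 0 h (-0.06, adjusted p = 0.81), and the rise was 1.62 ± 0.09 (limma adjusted p = 0.000206). Ltbp2, a latent TGFβ binding protein family member of elastic fibres, went from 0.999, 12.4, 19.3 and 20.1 FPKM to 4.90, 27.8, 64.8 and 60.8 FPKM. WT was far below the other series at both times, and all 4 rose, by 1.48 ± 0.11 (adjusted p = 0.000323). Thbs1, a matricellular protein that can activate latent TGFβ, was at 200.03, 136, 202 and 219.9 FPKM and rose to 373, 309, 746 and 705 FPKM. The lowest 4 h value was above the highest 1 h value, and the mean was 1.41 ± 0.17 (adjusted p = 0.00154). Inhba, the activin A subunit, went from 25.4, 17.4, 21.9 and 22.0 FPKM to 56.2, 55.2, 148 and 103 FPKM. It rose by 1.90 ± 0.25 (adjusted p = 0.00236) without overlap, more in rvWT and sim than in WT and null, a difference between sets that was not tested; its first-hour difference of -0.27 kept it out of the late class.

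Of the receptor genes Tgfbr2, Tgfbr3 and Bmpr1a fell, as did the ligand gene Inhbb. Tgfbr2, the type II receptor, was at 26.9, 32.5, 28.4 and 34.1 FPKM at 1 h and at 22.5, 23.7, 18.3 and 19.8 FPKM at 4 h. The ranges did not overlap, and the difference was -0.51 ± 0.09 (limma adjusted p = 0.00645). The coreceptor gene Tgfbr3 fell by -0.92 ± 0.12, from 1.47, 11.8, 6.97 and 7.72 FPKM to 0.795, 5.52, 2.71 and 2.96 FPKM (adjusted p = 0.00236), with WT lowest throughout. The inhibin and activin subunit gene Inhbb fell by -0.87 ± 0.10 (adjusted p = 0.00154), opposite to Inhba. Of 22 tested TGFβ ligands, receptors, SMADs and latent TGFβ binding proteins, 4 rose (18.2%) and 6 fell (27.3%), against 7.82% and 14.8% of all genes. The 4 were Inhba and the binding protein genes Ltbp1, Ltbp2 and Ltbp3, so no receptor or SMAD gene was among the rises. The list median was -0.00. Smad2, Smad4 and Smad5 were at 0.03, 0.01 and -0.02 and did not pass, nor did the ligands Tgfb1, Tgfb2 and Tgfb3 at 0.46, 0.20 and 0.27 or the receptors Tgfbr1, Acvr1 and Bmpr2 at -0.20, 0.32 and 0.32. The 4 rises became 2 without rvWT 1 h, sim 1 h or sim 4 h.

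Inhibitors and subunits of NF-κB rose together after 1 h: 8 of 9 tested NF-κB feedback genes rose (88.9%, against 7.82% of all genes) and 0 fell, with a median of 0.78. Nfkbie, an inhibitor of NF-κB, was at 7.05, 7.04, 9.25 and 9.01 FPKM at 1 h and at 18.5, 17.7, 32.2 and 28.6 FPKM at 4 h. No 4 h value came near the 1 h range, and the rise was 1.44 ± 0.10 (limma adjusted p = 0.000317). Tnfaip3, the ubiquitin-editing enzyme A20, rose by 1.25 ± 0.11, from 29.6, 4.91, 3.60 and 7.06 FPKM to 72.5, 18, 8.97 and 14.4 FPKM (adjusted p = 0.00055). WT was highest at both times. Nfkb2 and Relb, which form the noncanonical dimer, rose by 1.03 ± 0.10 and 0.95 ± 0.14, and Birc3, an inhibitor of apoptosis, by 0.78 ± 0.07. Bcl3, a nuclear member of the IκB family, was the exception at -0.19 ± 0.09. The count of 8 was 5 without rvWT 1 h, rvWT 4 h or sim 4 h, and 7 in set B alone.

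Of 29 tested genes for cytokines, growth factors and the enzymes Ptgs2 and Has2, 10 rose (34.5%) and 4 fell (13.8%, close to the 14.8% of all genes). The list median was 0.42, and both enzyme genes were among the 10. Ccl2, a monocyte chemokine, was at 112, 211, 209.9 and 199 FPKM at 1 h and at 443, 443, 729 and 738 FPKM at 4 h. The times did not overlap, and the rise was 1.68 ± 0.17 (limma adjusted p = 0.000871). Ptgs2, the inducible cyclooxygenase whose promoter is printed above, went from 43.0, 45.1, 31.9 and 26.6 FPKM to 105, 99.1, 139 and 122 FPKM. WT and null were the higher pair at 1 h and the lower pair at 4 h, and the mean was 1.66 ± 0.19 (adjusted p = 0.00143). Has2, a hyaluronan synthase, rose by 1.61 ± 0.22, Cxcl10 by 1.63 ± 0.22, Ccl7 by 1.33 ± 0.22 and the chemokine Ccl17 by 1.03 ± 0.16. Cxcl10 and Ptgs2 met the definition of a late rise, whereas Ccl2, Ccl7, Ccl17 and Has2 had first-hour differences of 0.26, 0.44, 0.55 and 0.60 that did not pass. The 4 that fell were the ligand genes Kitl (-0.96 ± 0.12), Wnt9a, Ptn (-0.42 ± 0.07) and Btc (-0.43 ± 0.10). In the interferon response list Cxcl10 was the single rise and Gbp2 the single fall of 19, with a median of -0.04. Each was 5.26% of the list, against 7.82% of all genes that rose and 14.8% that fell.

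Contractile and adhesion genes rose as a group, with 22 of 36 called higher (61.1%, against 7.82% of all genes), 0 called lower and a median of 0.30. Itga5, the fibronectin receptor subunit, was at 59.8, 67.3, 76.3 and 70.8 FPKM at 1 h and at 93.1, 119, 223 and 168 FPKM at 4 h. The times did not overlap, and the rise was 1.05 ± 0.14 (limma adjusted p = 0.00218). The other members moved by less: Pdlim7, an actin-associated adaptor, by 0.71 ± 0.06, Itgb5 by 0.64 ± 0.07, the crosslinker Actn1 by 0.54 ± 0.04, Tagln by 0.50 ± 0.08 and the smooth muscle actin gene Acta2 by 0.33 ± 0.09 (adjusted p = 0.0322). Acta2 rose by 0.05 in WT and by 0.66 in null. Calponin genes Cnn1 and Cnn2 were at 0.10 ± 0.09 and 0.13 ± 0.05 and did not pass. The count stayed at 18 or more in each leave-one-out fit, and was 26 under median-ratio scaling and 21 under quantile normalization.

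Among 34 matrix genes 16 rose (47.1%) and 3 fell (8.82%), against 7.82% and 14.8% of all genes, with a median of 0.23. Apart from Thbs1 the changes were below a doubling: the fibrillar collagen gene Col5a1 rose by 0.72 ± 0.09, the glycoprotein genes Tnc and Fn1 by 0.66 ± 0.11 and 0.26 ± 0.07, the microfibril gene Fbn1 by 0.51 ± 0.05 and Col1a1 by 0.27 ± 0.07. The call of Col1a1 was lost in 7 of 12 leave-one-out fits. Col3a1, Col6a1 and Col6a2 fell by 0.30, 0.30 and 0.24 on the log2 scale, while Col6a3 rose by 0.54 ± 0.14. Col27a1, a fibrillar collagen gene outside the list, rose by 1.49 ± 0.11 (limma adjusted p = 0.000346), from 1.33, 2.61, 2.44 and 3.19 FPKM to 6.63, 10.2, 8.62 and 8.18 FPKM, without overlap. The 16 became 10 without rvWT 1 h, and the 3 became 1 if either sim library was dropped.

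Enzymes that act on the matrix moved both ways. Of 22 matrix modifying enzymes 7 rose (31.8%) and 4 fell (18.2%), against 7.82% and 14.8% of all genes, with a median of 0.09. Among them were the lysyl hydroxylase Plod2 (0.49 ± 0.06), the lysyl oxidase Loxl2 (0.42 ± 0.05) and, falling, the aggrecanase Adamts5 (-0.60 ± 0.14). The 7 were 4 without rvWT 1 h, and the 4 were 2 under median-ratio scaling and without WT 1 h, null 1 h or rvWT 1 h, and 1 without sim 1 h or sim 4 h. Of 17 proteases and inhibitors 7 rose (41.2%) and 3 fell (17.6%), with a median of 0.31. Mmp14, a membrane protease, rose by 0.35 ± 0.04 and its substrate Mmp2 by 0.45 ± 0.07, and the inhibitor Timp2 fell by -0.30 ± 0.06. Timp1 rose by 0.98 ± 0.28 (limma adjusted p = 0.0404) with 86.5 FPKM at 1 h and 82.8 FPKM at 4 h in null, the 1 series that did not rise. The 7 became 3 without null 1 h, rvWT 1 h, sim 1 h or sim 4 h.

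Among immediate early genes, the first transcription factors of growth factor responses, 7 of 23 rose after 1 h (30.4%) and 1 fell (4.35%). The list median was 0.07, and of all genes tested 7.82% rose and 14.8% fell. Egr1 rose by 1.51 ± 0.31, Myc by 1.03 ± 0.25, Ier2 by 0.77 ± 0.15 and Srf by 0.62 ± 0.09 (limma adjusted p = 0.0121, 0.0227, 0.0106 and 0.00411), and none of them had passed in the first hour. Fos, Jun and Nr4a1 were at -0.04 ± 0.25, 0.10 ± 0.16 and -0.33 ± 0.25 and did not pass. Of 16 ERK feedback genes 3 rose (18.8%, being Spry2, Errfi1 and Phlda1) and 1 fell (6.25%), with a median of 0.30. The 3 became 0 without rvWT 1 h, sim 1 h or sim 4 h, 1 without rvWT 4 h, and 5, 6 and 7 without WT 0 h, WT 4 h and null 4 h. Of 16 CCN and YAP target genes 4 rose (Ctgf, Cyr61, Wisp1, Ankrd1) and 1 fell (Nov), with a median of 0.08, and the 4 became 0 without sim 4 h, 1 without null 1 h, rvWT 1 h, rvWT 4 h or sim 1 h, and 2 without WT 1 h or null 4 h. Of 15 EMT factors, which shift epithelial cells to a mesenchymal state, Hmga2 (0.63 ± 0.09), Ets2 (0.34 ± 0.06) and Zeb1 (0.30 ± 0.06) rose (20%). Snai1 fell (6.67%), and the list median was -0.00.

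Of 23 mitosis genes 14 fell (60.9%) and 0 rose, against 14.8% and 7.82% of all genes. They ranged from -0.42 to -0.04 with a median of -0.19, where the median over all genes was itself -0.05. Median-ratio scaling gave 12 falls and a median of -0.14, and quantile normalization 15 and -0.20. Top2a, the topoisomerase of dividing cells, was at 183, 173, 165 and 164 FPKM at 1 h and at 156, 139, 118 and 121 FPKM at 4 h. The times did not overlap, and the difference was -0.37 ± 0.05 (limma adjusted p = 0.0019). The spindle genes Nusap1 and Kif11 fell by 0.42 and 0.38 on the log2 scale. Of 27 G1 and S genes 6 fell (22.2%), 0 rose and 21 did not pass, with a median of -0.12. The largest fall was that of the inhibitor of cyclin-dependent kinases Cdkn2c (-0.68 ± 0.08), while Cdk4, Cdk6 and Cdkn1a were at 0.00, 0.01 and 0.02 and did not pass. The 14 were 9 without null 1 h, rvWT 1 h, rvWT 4 h or sim 1 h, and the 6 were 11 without WT 4 h and 2 without null 1 h, rvWT 1 h, sim 1 h or sim 4 h.

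Genes of ribosome biogenesis went the other way, with 13 of 27 higher (48.1%, against 7.82% of all genes), 0 lower and a median of 0.26. Polr1b, a subunit of RNA polymerase I, rose by 0.46 ± 0.10 and the processing factor Heatr1 by 0.39 ± 0.07 (limma adjusted p = 0.0158 and 0.00763). This count was among the least stable: it was 4 without WT 1 h, 2 without rvWT 1 h, 5 without rvWT 4 h, 1 without sim 1 h or sim 4 h, and 21 without null 4 h. Of 29 genes of the ATF4 and unfolded protein response 11 rose (37.9%) and 3 fell (10.3%, against 14.8% of all genes), with a median of 0.11. Among the rises were the transcription factor genes Xbp1 (0.49 ± 0.04) and Atf4 (0.39 ± 0.05) and the glutathione-degrading enzyme Chac1 (0.54 ± 0.06). Ddit4 and Cebpb, both raised in the first hour, and Psat1 were the 3 that fell.

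**Figure D4:**
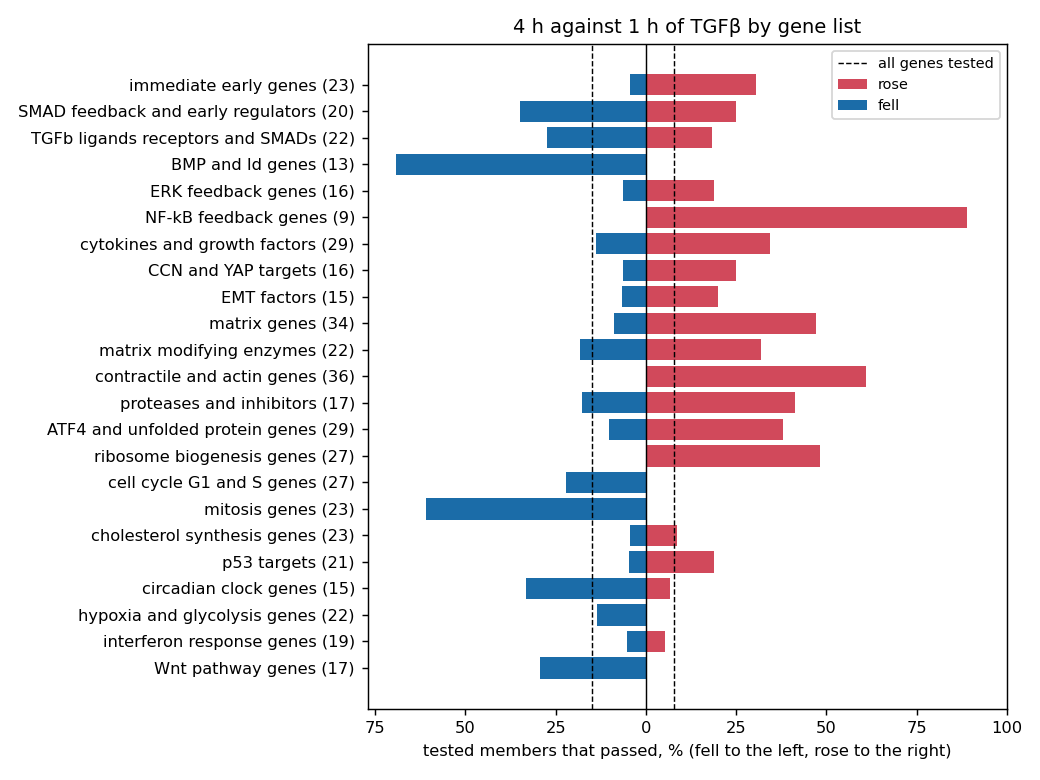
Share of the tested members of each gene list (number in brackets) that rose (right) or fell (left) between 1 h and 4 h, in percent; dashed lines mark 7.82% and 14.8% over all genes tested. NF-κB feedback genes, with 88.9% higher, and BMP and Id genes, with 69.2% lower, stand at the ends. The lists were chosen with earlier results of these data known.

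Of 15 circadian clock genes 5 fell (Bhlhe41, Dbp, Nr1d2, Rora, Per1) and Cry1 rose, with a median of -0.15. These were 33.3% and 6.67% of the list, against 14.8% and 7.82% of all genes tested. Leaving out null 1 h, rvWT 1 h, rvWT 4 h or sim 1 h gave 0 falls here, sim 4 h gave 2 and null 4 h gave 3, and quantile normalization gave 2 falls and 2 rises. Of 17 Wnt pathway genes 5 fell (29.4%) and 0 rose, with a median of -0.19. The receptor Fzd7 (-0.48 ± 0.06) and the antagonist Sfrp2 (-0.63 ± 0.11) joined Wnt9a and Wnt4 among the falls. Quantile normalization gave 2 rises and 4 falls in this list. Of 22 hypoxia and glycolysis genes 3 fell (13.6%), which were Egln3, Bnip3 and Pdk1, and 0 rose. The share that fell and the median of -0.05 were close to those over all genes (14.8% and -0.05). Of 23 cholesterol synthesis genes 2 rose (8.7%, close to the 7.82% of all genes) and 1 fell (4.35%), with a median of 0.04. The 2 were 4 without WT 4 h, 0 without rvWT 1 h or sim 4 h and 1 in 8 of the other fits, and 2 without WT 1 h. Of 21 p53 targets 4 rose (19%) and 1 fell (4.76%), with a median of 0.10, Fas leading at 0.69 ± 0.05 and Cdkn1a at 0.02 ± 0.07. Among markers of other cell types, the keratin Krt14 rose by 1.31 ± 0.25 and Krt19 fell by -0.61 ± 0.08, and 1 fibroblast marker of 10 rose and 2 fell, with a median of -0.14. Neural markers gave 2 rises of 4 (Ncam1, Tubb3), endothelial markers 1 rise and 1 fall of 3 (Flt1, Tek), muscle markers 1 rise of 3 (Acta1), the adipocyte gene Lpl a fall, and haematopoietic and cartilage or bone markers 0 calls of 2 each. The calls of Tek, Tubb3 and Acta1 held in only 2, 4 and 7 of 12 leave-one-out fits, while those of Ncam1, Flt1 and Lpl held in all 12.

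The late falls held several genes of higher level. Neat1, a nuclear long noncoding RNA, was at 121, 104, 71.1 and 74.4 FPKM at 1 h and at 63.4, 63.5, 29.7 and 34.2 FPKM at 4 h. The times did not overlap, and the fall was -0.99 ± 0.09 (limma adjusted p = 0.000709). Mest, an imprinted gene, went from 55.5, 71.4, 15.2 and 27.6 FPKM to 25.9, 47.6, 4.15 and 8.56 FPKM, a fall of -1.22 ± 0.21 (adjusted p = 0.00691) in each series, with ranges that overlap. Arhgap18, a GTPase activating protein, fell by -1.28 ± 0.14, Nrn1, a membrane-anchored neuritogenic protein, by -1.10 ± 0.13, the protease Adamts9 by -1.04 ± 0.08 and Figf, the growth factor VEGF-D, by -1.01 ± 0.18. The first-hour differences of these 6 genes lay between -0.17 and 0.06.

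Libraries at 16 h, 1 each of WT and null of set A, show where the classes stood later, with no test. The 0 h libraries set against 16 h also entered the calls that chose the classes. Part of the values below was therefore fixed by that choice, and no share over all genes stands beside them. Genes that peaked at 1 h had a median 16 h minus 0 h difference of -0.02 in WT and 0.06 in null. Those that rose in both intervals were above 0 h in 50 of 50 in each line, by medians of 0.79 and 0.99. Late risers were above 0 h in 449 of 546 in WT (median 0.20) and 517 in null (0.40), and late falls were above it in 219 of 1313 in WT (median -0.16) and 45 in null (-0.47).

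Whether the step from 1 h to 4 h depended on Arkadia was tested by an interaction term. Series with wild-type Arkadia (WT, rvWT) against those without (null, sim) gave 3 genes of 11018 (0.0272%), all small RNAs, with 428 genes at an unadjusted p under 0.05. Single leave-one-out fits gave 3 to 9. WT against the 3 null-derived series gave 6 genes (0.0545%; 731 unadjusted), of which 2 were small RNAs, and 3 to 18 genes without single libraries (3 without null 0 h or rvWT 0 h, 18 without null 4 h). The others were Ttpal, Bicc1, Fgf18 and Spns2. Fgf18, a growth factor gene, was at 18.8, 53.6, 13.7 and 21.3 FPKM at 1 h and 2.90, 36.0, 7.97 and 11.5 FPKM at 4 h. It fell in all 4 series and most in WT, by 2.34 against 0.56 to 0.83 (limma adjusted p of the difference = 0.0158). Bicc1, an RNA-binding protein gene, fell in WT from 66.1 to 33.1 FPKM and was at 28.4, 24.6 and 28.6 FPKM at 1 h and 35.2, 29.2 and 32.9 FPKM at 4 h in the other series. As a single line stands on the WT side, genotype, line and library cannot be told apart.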

How the data were processed

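The authors deposited 1 table of FPKM values with a column for each of 16 libraries. Build mm9 is named in the submitters' processing notes, as are Cufflinks 2.2.1, STAR 2.3.0e, CASAVA 1.8.2 and SAMtools; the sources used here give neither the annotation nor how FPKM was scaled. The lowest mean of any gene within a set was 0.25 FPKM, which leaves out genes silent in a set. Totals were 397019 to 481970 FPKM. Read depth is unknown, so no counting interval is given, and precision rests on the spread between libraries. For 334 genes, values both below 0.1 FPKM and of 5 FPKM upwards occurred in different libraries.

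The fit used the 12 libraries at 0, 1 and 4 h of WT, null of set A, rvWT and sim, and genes averaging 1 FPKM or more there, as log2(FPKM + 1), in limma 3.58.1 (trend, R 4.3.3), with series as a block and time as a factor (6 residual degrees of freedom) and Benjamini-Hochberg adjustment over all 11018 genes. The pairing of 1 h with 4 h comes from the shared line and set in the labels. The 1 h minus 0 h and 4 h minus 0 h contrasts came from the same fit and share libraries with 4 h minus 1 h, so their values stand side by side only. Interaction terms compared WT and rvWT with null and sim, and WT with the other 3 series. The fit was tested on simulated data. Named were the 15 largest rises and falls of at least 5 FPKM that moved the same way in 4 series (small RNAs, of which the table has 138, are only counted), 8 genes per time class, 4 per list by p, and 5 each way per interaction; other genes were named after their values were seen, and some items are not reported here. Members and gene lists were chosen with earlier results of these data known. Alternatives changed the pseudocount, filter, scaling, variance model, libraries, sets and class limits.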

Additional observations from a re-analysis of the deposited data

Results flagged for a closer look

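The difference between 4 h and 1 h depended on Arkadia status in the interaction test for 3 small RNA genes, with no protein-coding gene among them. Snord42b differed by 9.73 on the log2 scale: it was listed at 698 FPKM in WT and 1032 FPKM in rvWT at 4 h, and at 0 in null and sim at both times and in all 4 series at 1 h. Mir1839 differed by 6.65, listed at 81.8 FPKM in WT and 120.9 FPKM in rvWT at 4 h and at 0 in the other 6 of these libraries; the untreated null library of set B, outside the fit, was at 183.6 FPKM and the highest of all. Mir1943 differed by 7.28, listed at 108.8 FPKM in null and 218 FPKM in sim at 1 h and at 0 in the other 6. A listed 0 can be a failed estimate.

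The difference depended on the line of origin (WT against the 3 null-derived series) for 6 genes. Ttpal differed by -2.46, with 0.306 FPKM in WT at 4 h against 6.10 to 7.13 FPKM in the other 7 libraries, and WT at 16 h was at 6.72 FPKM, so this call rests on 1 library. Fgf18 differed by -1.64, Spns2 by -1.62 and Bicc1 by -1.22. In WT Fgf18 went from 18.8 to 2.90 FPKM and Spns2 from 9.04 to 2.01 FPKM between 1 h and 4 h, and Bicc1 from 66.1 to 33.1 FPKM. The small RNA Mir3060 (-5.36) was at 40.01 FPKM in WT at 1 h and at 0 in the other 7 libraries, while null of set B, outside the fit, was at 32.9 FPKM at 1 h. Mir684-2 (5.32) was at 34.7 FPKM in WT at 4 h, at 4.62 and 2.99 FPKM in null and at 0 in the other 5. The 6 calls by origin were also 6 genes without WT 0 h; the term cannot be estimated without WT 1 h or WT 4 h.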

How the results depend on the processing

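Of 150 named genes past the test, none changed direction under any alternative run, which their choice on the same libraries in part fixes, and 107 stayed past the threshold in all 12 leave-one-out fits. Calls lost were 43 with the 8 libraries at 1 h and 4 h alone, 147 in set A alone, 31 in set B alone, 12 under quantile normalization, 12 with all 16 libraries, 4 under median-ratio scaling, 4 with robust variances, 3 and 4 with pseudocounts of 0.1 and 5, and 2 with a mean of at least 5 FPKM. The 8 libraries alone gave 381 rises and 510 falls. Set A alone gave 2 rises, 2 falls, 1 fall among the first-hour genes, 0 genes peaking at 1 h, 1 recovering, 0 rising and 0 falling in both intervals, and 1 late rise and 1 late fall. Set B alone gave 561 rises, 958 falls, 11 recovering genes, 3 falling in both intervals and 706 late falls. A difference of at least 1 left 45 rises and 48 falls. A pseudocount of 5 gave 24 falls among the first-hour genes and 14 genes by origin; first-hour genes at 0.5 gave 89 falls. No filter gave 5 and median-ratio scaling 2 genes falling in both intervals, and recovering genes numbered 20 at a mean of 5 FPKM and 58 with 16 libraries. Without the rvWT series, a choice made after seeing the data, there were 335 rises, 518 falls, 43 peaking, 8 recovering, 9 rising and 0 falling in both intervals, 222 late rises and 397 late falls. The cause was not tested. Either set alone, the 8 libraries and the fits without rvWT or a library have fewer samples, and set A alone has as many as set B alone.

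Leaving out 1 library gave 433 to 983 rises, 693 to 1717 falls, 32 to 40 falls among the first-hour genes, 57 to 112 peaking, 18 to 38 recovering, 13 to 70 rising and 0 to 21 falling in both intervals, 293 to 672 late rises, 561 to 1425 late falls, 3 to 9 genes by status and 3 to 18 by origin. The series stood as a block in every fit but one. Without that replicate block, an alternative added after seeing the data, the spread between lines entered the error, and there were 9 rises, 15 falls, 8 falls among the first-hour genes, 4 genes peaking at 1 h, 0 recovering, 0 rising and 0 falling in both intervals, 7 late rises and 2 late falls; 136 of the 150 named calls were lost. Read depth is unknown, and genes near 1 FPKM are limited by the pseudocount.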
